A study of Mus musculus with 15 samples.

Results

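Nuclear genes for 9 enzymes and subunits of the mitochondrial citric acid cycle were followed through 15 RNA-sequencing libraries of sorted mouse islet cells. The 9 were chosen by name as cycle enzymes, without use of their measured levels: *Cs*, *Idh2*, *Idh3a*, *Idh3b*, *Ogdh*, *Sucla2*, *Suclg1*, *Fh1* and *Mdh2*. Succinate dehydrogenase, which also belongs to the respiratory chain, was not included. They are 9 of the 22957 genes kept from the tables, and all 9 were among the 11284 genes tested. Islet cells carrying a red fluorescent protein (RFP), switched on by cre recombinase as a lineage mark of β cells and former β cells, were sorted by aldefluor, a fluorescent substrate of aldehyde dehydrogenase (ALDH), into ALDH- and ALDH+ cells. There were 3 control ALDH-, 2 control ALDH+, 5 knockout ALDH- and 5 knockout ALDH+ libraries. The knockout cells lacked *Foxo1*, *Foxo3* and *Foxo4*. The sample labels describe the control mice as heterozygous for all 3 Foxo genes, whereas the methods of the study describe control mice without floxed alleles or without cre. All mice were on a mixed 129JC57BL/6 background. The cre driver was Rip-cre, active in mature β cells, in 9 libraries, and Pdx-cre, active from pancreatic precursors on, in 6, so RFP marks a wider set of cells under Pdx-cre. The Pdx-cre libraries were control ALDH- replicate 3, control ALDH+ replicate 2 and knockout replicates 4 and 5 of both sorts. The Rip-cre mice were 6 months old, and no age is given for the Pdx-cre mice in the sources used here. The methods of the study count the sorted Rip-cre animals by genotype and not by library. Whether a library came from 1 animal or from a pool is not stated, so p-values measure the spread between libraries.

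The citric acid cycle joins acetyl-CoA from glucose, fatty acids or amino acids to oxaloacetate, oxidizes the citrate so formed, and passes the electrons on as NADH and reduced flavin to the respiratory chain. In β cells the ATP made from them closes potassium channels and triggers insulin release, and intermediates drawn from the cycle feed the malate, citrate and glutamate that leave the mitochondrion. Citrate synthase (*Cs*) opens the cycle. The NAD-dependent isocitrate dehydrogenase (*Idh3a* for the catalytic subunit, *Idh3b* and *Idh3g* for its partners) carries the oxidative step, while *Idh2* encodes a separate mitochondrial enzyme that works with NADP. *Ogdh* encodes the first component of the 2-oxoglutarate dehydrogenase complex. Succinyl-CoA ligase pairs the common subunit *Suclg1* with *Sucla2* in the ATP-forming enzyme or with *Suclg2* in the GTP-forming one. Fumarase (*Fh1*) and malate dehydrogenase (*Mdh2*) close the cycle.

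The values are FPKM, fragments scaled to transcript length and to mapped fragments, as the authors deposited them, so levels of different genes can be set side by side. The sum of fragments over genes, worked out from the width of each confidence interval, was between 7492010 and 10057827 a library. The number of fragments behind a single value of a cycle gene was between 132 (*Suclg1*) and 3647 (*Ogdh*). A single value was marked as a failed estimate, that of *Ogdh* in knockout ALDH- replicate 1, and it was treated as missing. The sort was visible in *Aldh1a3*, at 0.490 to 4.09 FPKM in the ALDH- and 22.1 to 76.9 FPKM in the ALDH+ libraries. *Foxo1* was at 12.04 to 20.1 FPKM in control and 0.0925 to 4.24 FPKM in knockout libraries. *Foxo3* did not separate the genotypes, at 12.7 to 23.0 and 9.78 to 30.6 FPKM, and *Foxo4* was listed at 0 to 1.34 and 0 to 0.0669 FPKM. A whole-gene FPKM also counts fragments outside a deleted exon, so these values do not check the deletion itself. The β-cell markers *Pdx1* (19.7 to 96.1 FPKM) and *Ucn3* (69.9 to 795 FPKM) were present in every library, and *Mafa* was low (0.434 to 13.9 FPKM).

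*Mdh2* was the most abundant of the cycle genes, at a mean of 188 FPKM ± 39.2 (SD, n = 15), followed by *Fh1* at 120.4 ± 35.1 (SD, n = 15). *Idh3b* (56.9 ± 10.5), *Cs* (51.5 ± 7.07), *Ogdh* (37.6 ± 6.30, n = 14) and *Suclg1* (33.1 ± 10.3) lay in the middle of the order. *Idh2* (27.8 ± 8.77), *Sucla2* (21.4 ± 5.02) and *Idh3a* (16.9 ± 5.42) were the least abundant. *Mdh2* was above *Fh1* in 13 of 15 libraries, *Fh1* above *Idh3b* in 14 of 15, and *Cs* above *Ogdh* in 14 of 14. *Idh3b* and *Cs* could not be ordered, with *Idh3b* higher in 8 of 15 libraries, and nor could *Ogdh* and *Suclg1* (9 of 14) or *Suclg1* and *Idh2* (9 of 15). *Idh2* was above *Sucla2* in 13 of 15 libraries, and *Sucla2* above *Idh3a* in 12 of 15. The catalytic subunit *Idh3a* was thus listed below its partner *Idh3b* in every library.

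Relative spread differed among the genes. *Cs* moved least, with a standard deviation of 13.7% of its mean and 1.62-fold between its lowest and highest library. *Idh3a* (32.1%, 3.76-fold), *Idh2* (31.6%, 3.51-fold) and *Suclg1* (31.2%, 3.73-fold) moved most.

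**Figure D1:**
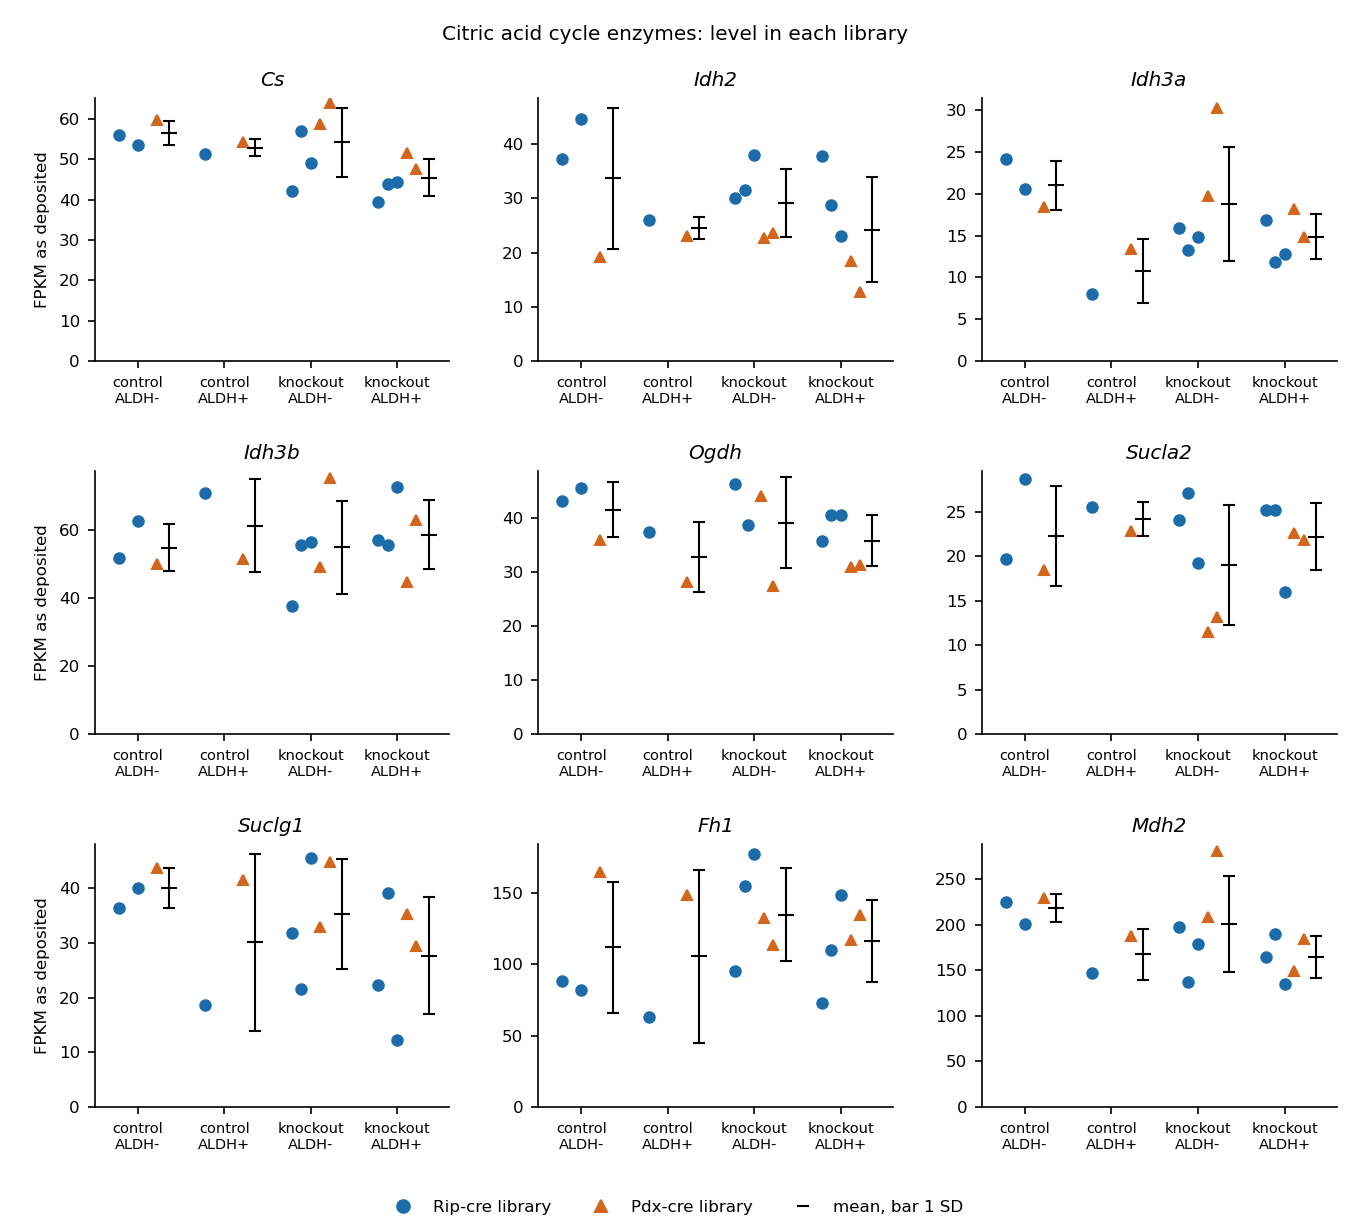
FPKM of the 9 cycle genes in each of the 15 libraries (vertical axes from 0), by genotype and ALDH sort; circles are Rip-cre and triangles Pdx-cre libraries, and the black marks give the mean with 1 SD. *Idh3a* sits at 8.06 and 13.4 in control ALDH+ cells and at 18.4 to 24.2 in control ALDH- cells, and the Pdx-cre libraries of *Idh2* lie between 12.7 and 23.6.

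Promoter windows are shown for members that the results turn on, those of *Idh2*, the gene called between cre drivers, and of *Mdh2*, the most abundant. They are RefSeq windows of 300 bases in GRCm38.p6, from 250 bases before to 50 after the start site, at chr7:80115301-80115600 on the minus strand and chr5:135778399-135778698 on the plus strand, and the expression tables themselves are in mm9. Capitals mark CCAAT and GGGCGG in *Idh2* and TGCGCA and GGGCGG in *Mdh2*, on either strand, CCGCCC being GGGCGG read from the other strand.
Idh2: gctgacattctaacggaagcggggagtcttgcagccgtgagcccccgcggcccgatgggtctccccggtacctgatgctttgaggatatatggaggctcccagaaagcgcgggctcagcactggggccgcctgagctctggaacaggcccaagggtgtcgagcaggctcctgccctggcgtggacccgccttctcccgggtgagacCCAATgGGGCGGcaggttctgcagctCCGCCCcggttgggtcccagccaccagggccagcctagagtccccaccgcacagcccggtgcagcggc
Mdh2: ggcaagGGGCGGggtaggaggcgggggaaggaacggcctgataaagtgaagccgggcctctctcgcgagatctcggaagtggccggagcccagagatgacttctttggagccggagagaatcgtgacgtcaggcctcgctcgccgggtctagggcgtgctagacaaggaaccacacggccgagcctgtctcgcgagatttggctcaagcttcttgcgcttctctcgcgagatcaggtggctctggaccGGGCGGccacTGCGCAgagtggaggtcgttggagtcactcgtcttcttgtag

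Windows were found for 8 of the 9 genes, Idh3a being without one in the table used, and *Ogdh* had 6. The forkhead motif GTAAACA, which FoxO factors can bind, was in 0 of 8, against 3.65% of the 32851 windows, both strands searched. TGCGCA, the core of sites for the mitochondrial gene regulator NRF1, was in *Mdh2* and *Ogdh*, against 7.76% of windows. CCAAT was in 5 of 8 (37.4% of windows) and GGGCGG in 6 of 8 (35.7% of windows). A gene counted if any of its windows matched, so *Ogdh* had 6 chances, while the percentages are of single windows. A match is a stretch of letters and says nothing of binding, and its absence speaks only for these windows.

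The central comparison of the study sets ALDH+ cells, which hold the β cells regarded as failing, against ALDH- cells. Averaged over control and knockout cells, *Idh3a* was the 1 cycle gene of 9 that fell in ALDH+ cells, and 7 of the 9 had a negative log2 difference. Of all 11284 genes, 5.87% were called in this comparison, 3.64% as lower, and 51.8% had a negative difference, against a median difference of -0.22 over the 9 cycle genes and of -0.02 over all genes. At an unadjusted p under 0.05, 3 of the 9 passed (*Idh3a*, *Mdh2* and *Suclg1*), where 20.8% of all genes did. Differences are on the scale of log2(FPKM + 1) after rescaling between libraries, tested with limma with the cre driver in the model and with Benjamini-Hochberg adjustment over all genes. In sorted bulk samples, fewer cells that express a gene and less of its RNA in each cell cannot be told apart.

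At the entry to the cycle, *Cs* (chr10:127774888-127799535, mm9) stood at 56.1, 53.6 and 59.7 FPKM in the control ALDH- libraries and at 51.4 and 54.3 FPKM in the control ALDH+ libraries. Among the knockout libraries it was at 42.1, 56.9, 49.2, 58.8 and 63.9 FPKM when ALDH- and at 39.3, 44.0, 44.4, 51.6 and 47.7 FPKM when ALDH+. The ALDH+ libraries lay toward the lower end but overlapped the ALDH- ones. The average log2 difference of -0.19 ± 0.11 (SE) did not pass (limma, adjusted p = 0.334).

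*Idh3a* (chr9:54434318-54452469, mm9) was at 24.2, 20.5 and 18.4 FPKM in control ALDH- cells and at 8.06 and 13.4 FPKM in control ALDH+ cells. In knockout cells it was at 15.9, 13.3, 14.8, 19.7 and 30.3 FPKM when ALDH- and at 16.9, 11.8, 12.8, 18.2 and 14.8 FPKM in the ALDH+ libraries. The control groups did not overlap, as for 31.1% of all genes after rescaling with 3 and 2 libraries. The knockout groups did overlap, with a single high value in knockout ALDH- replicate 5. The average log2 difference was -0.64 ± 0.17 (SE; 95% confidence interval -1.003 to -0.29; limma, adjusted p = 0.0346). The difference had the same sign within Rip-cre libraries (-0.72, adjusted p = 0.0929) and within Pdx-cre libraries (-0.54, adjusted p = 0.86), and the call was lost in both smaller sets. It was also lost when any of 7 single libraries was left out (control ALDH- replicates 1 and 2, both control ALDH+ libraries, and knockout ALDH+ replicates 2, 3 and 5), the adjusted p rising to 0.268 without control ALDH+ replicate 1, where the log2 difference was -0.55.

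**Figure D2:**
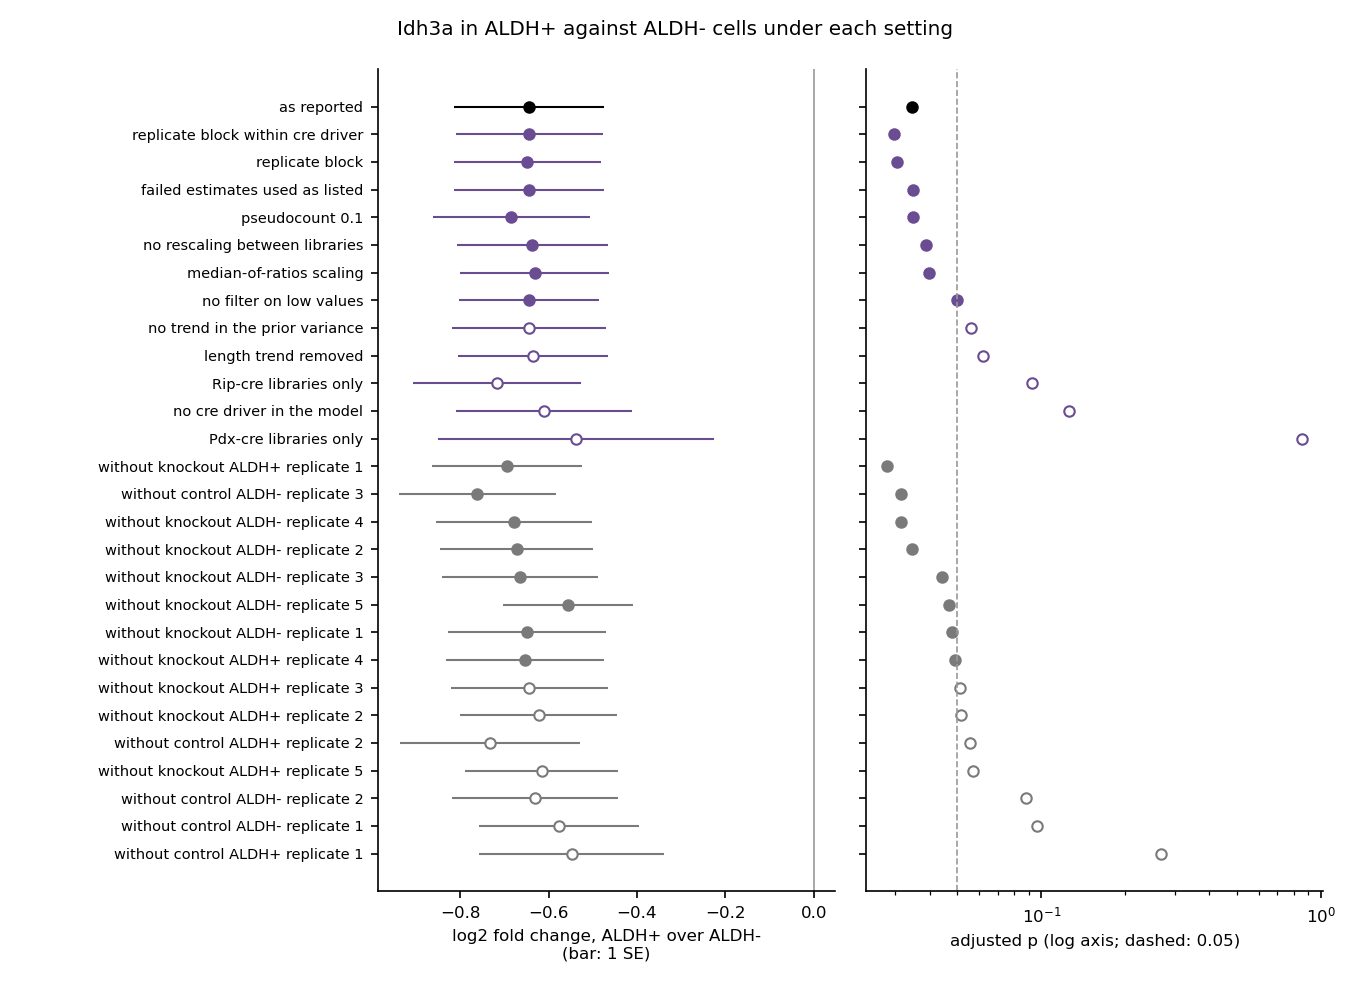
*Idh3a* in ALDH+ against ALDH- cells averaged over genotypes, as reported, under 12 other settings and with each library left out in turn; the left panel gives the log2 difference with 1 SE and the right panel the adjusted p on a log axis, filled where it is under 0.05. The log2 difference stays between -0.76 and -0.54, while the adjusted p lies on both sides of the dashed line at 0.05.

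Its partner *Idh3b* (chr2:130105045-130110187, mm9), a non-catalytic subunit, was at 51.6, 62.6 and 49.98 FPKM in control ALDH- and at 70.8 and 51.5 FPKM in control ALDH+ cells. Knockout libraries had 37.6, 55.5, 56.4, 49.2 and 75.3 FPKM when ALDH- and 57.1, 55.6, 72.5, 44.7 and 62.7 FPKM when ALDH+. The sorts overlapped in both genotypes, and the average log2 difference was 0.13 ± 0.17 (SE, adjusted p = 0.73). Within Pdx-cre libraries it was -0.13.

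*Idh2* (chr7:87239734-87260236, mm9) was at 37.3, 44.5 and 19.2 FPKM in control ALDH- and at 26.0 and 23.1 FPKM in control ALDH+ cells. Among the knockout libraries it was at 30.1, 31.4, 38.0, 22.6 and 23.6 FPKM when ALDH- and at 37.8, 28.8, 23.1, 18.4 and 12.7 FPKM when ALDH+. Here the low values of each group were those of the Pdx-cre libraries, and the average log2 difference between the sorts of -0.29 ± 0.16 (SE) did not pass (adjusted p = 0.302). It was -0.13 without control ALDH+ replicate 1 and -0.44 without control ALDH+ replicate 2.

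*Ogdh* (chr11:6191600-6259097, mm9) was at 43.2, 45.7 and 35.9 FPKM in control ALDH- and at 37.4 and 28.2 FPKM in control ALDH+ cells. In knockout cells it was at 46.3, 38.8, 44.1 and 27.4 FPKM in ALDH- replicates 2 to 5 and at 35.7, 40.6, 40.6, 31.0 and 31.4 FPKM when ALDH+. As listed the sorts overlapped in both genotypes, while after rescaling between libraries the control groups did not. The average log2 difference of -0.22 ± 0.12 (SE) did not pass (adjusted p = 0.329).

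The subunits of succinyl-CoA ligase had differences of opposite sign, and neither was called. *Suclg1* (chr6:73198499-73226901, mm9) was at 36.5, 40.2 and 43.8 FPKM in control ALDH- and at 18.7 and 41.6 FPKM in control ALDH+ cells. Among the knockout libraries it was at 31.8, 21.7, 45.6, 32.9 and 44.9 FPKM when ALDH- and at 22.3, 39.2, 12.2, 35.3 and 29.5 FPKM when ALDH+. The 4 lowest values, in control ALDH+ replicate 1, knockout ALDH+ replicates 1 and 3 and knockout ALDH- replicate 2, were all from Rip-cre libraries. The average log2 difference was -0.49 ± 0.23 (SE; 95% confidence interval -0.98 to -0.01; adjusted p = 0.227), and it was -0.74 in the Rip-cre set and -0.21 in the Pdx-cre set. It was -0.29 without control ALDH+ replicate 1 and -0.68 without control ALDH+ replicate 2. *Sucla2* (chr14:73952593-73995949, mm9) was at 19.7, 28.7 and 18.4 FPKM in control ALDH- and at 25.5 and 22.8 FPKM in control ALDH+ cells. Knockout libraries had 24.1, 27.1, 19.2, 11.5 and 13.2 FPKM when ALDH- and 25.2, 25.2, 16.0, 22.6 and 21.8 FPKM when ALDH+. The groups overlapped, with the lowest values in the Pdx-cre knockout ALDH- libraries. Its average log2 difference was 0.22 ± 0.18 (SE, adjusted p = 0.534), with 0.01 in the Rip-cre set and 0.50 in the Pdx-cre set.

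At the end of the cycle, *Fh1* (chr1:177531509-177555766, mm9) was at 88.7, 82.4 and 165 FPKM in control ALDH-, and at 62.9 and 149 FPKM in control ALDH+ cells. In knockout cells it was at 95.5, 155, 178, 133 and 114 FPKM when ALDH- and at 73.0, 110.0, 148, 117 and 135 FPKM when ALDH+. The groups overlapped widely, and the average log2 difference was -0.21 ± 0.22 (SE, adjusted p = 0.646). It was 0.05 without control ALDH+ replicate 1.

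*Mdh2* (chr5:136254519-136266256, mm9) was at 225, 201 and 229 FPKM in control ALDH- and at 147 and 187 FPKM in control ALDH+ cells. Among the knockout libraries it was at 198, 137, 179, 209 and 281 FPKM when ALDH- and at 164, 189, 135, 149.6 and 184 FPKM when ALDH+. The control groups did not overlap, as for 31.1% of all genes after rescaling, and the knockout groups did. The average log2 difference of -0.35 ± 0.14 (SE; 95% confidence interval -0.64 to -0.07) passed an unadjusted 0.05 and missed the adjusted threshold by limma (adjusted p = 0.141).

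**Figure D3:**
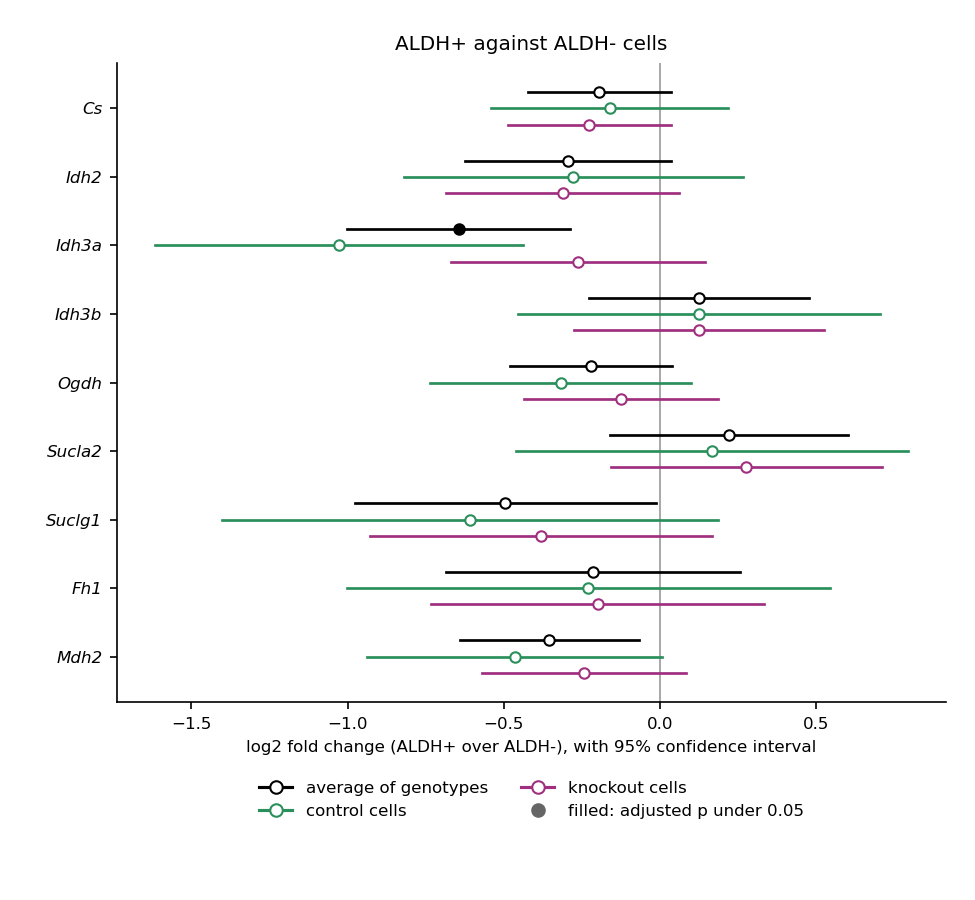
Log2 difference between ALDH+ and ALDH- cells of each cycle gene with its 95% confidence interval, as the average over genotypes (black), in control cells (green) and in knockout cells (magenta); a filled point has an adjusted p under 0.05. The filled point is *Idh3a* at -0.64, and 7 of the 9 averages lie left of 0.

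Other measures also moved with the sort. The nuclear-retained RNAs *Malat1*, *Neat1*, *Meg3* and *Kcnq1ot1* rose in ALDH+ cells, 4 of 4 (median log2 difference 2.09). Their summed level was 272 to 1610 FPKM in ALDH- and 2045 to 4903 FPKM in ALDH+ libraries. The pancreatic polypeptide cell markers *Ppy* and *Pyy*, of which neither was at 0 in any library, fell, 2 of 2. Their summed level was 539 to 18184 FPKM in ALDH- and 318 to 4433 FPKM in ALDH+ libraries. Of all genes 5.87% were called, 3.64% as lower. The RNAs and markers just named all stand in the study's own list of differences between these sorts in wild-type cells. Their calls here were thus foreseeable and are no separate finding. Of 3 α-cell markers tested 0 were called and 2 passed an unadjusted 0.05, among them *Gcg* (-2.13, limma, adjusted p = 0.0684), and the list summed to 672 to 35849 FPKM in ALDH- and 157 to 5829 FPKM in ALDH+ libraries. Of 6 acinar markers 0 were called and 0 passed an unadjusted 0.05, all 6 with a positive difference (median 1.25), and they summed to 0 to 365 FPKM and 0.0576 to 1376 FPKM. None of 8 β-cell markers was called between the sorts (0 at an unadjusted 0.05), with summed levels, mostly of *Iapp*, of 84052 to 128161 FPKM in ALDH- and 35641 to 99680 FPKM in ALDH+ libraries. A further listed marker, *Ins2*, was not among the genes kept and so was not tested. The dependence of level on transcript length also differed between libraries. Its slope on the log2 scale per doubling of length was 0.20 in control ALDH+ replicate 1 and 0.17 in knockout ALDH+ replicate 3. It was between -0.02 and 0.04 in the other ALDH+ libraries and between -0.16 and 0.02 in the ALDH- libraries. Of the cycle genes, the relative transcript length of *Mdh2*, *Suclg1*, *Idh3b*, *Fh1* and *Idh2* lay between the percentiles 15.4 and 25.3 of the genes tested, and that of *Ogdh* at 93.1. With the length trend of each library removed, the log2 difference of *Mdh2* was -0.19, that of *Suclg1* -0.36 and that of *Idh3a* -0.64 (adjusted p = 0.062). The part of the nuclear-retained RNAs and of the other cell types in the differences of the cycle genes was not tested.

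Taken by genotype, no cycle gene was called in control cells (0 of 9, where 1.07% of all genes were) or in knockout cells (0 of 9, 0.0177% of all genes), with limma. The count at an unadjusted p under 0.05 was 1 of 9 in control cells (*Idh3a*; 14.2% of all genes) and 0 of 9 in knockout cells (13% of all genes). In control cells, 3 of 9 genes had groups that did not overlap after rescaling (*Idh3a*, *Ogdh* and *Mdh2*), where 31.1% of all genes did with 3 and 2 libraries. In knockout cells 0 of 9 did, against 1.74% of all genes, and with both genotypes together 0 of 9, against 0.682%. The *Idh3a* log2 difference was -1.03 ± 0.28 (SE, adjusted p = 0.0849) in control and -0.26 ± 0.19 (SE, adjusted p = 0.597) in knockout cells. Without knockout ALDH- replicate 5, which enters through the shared estimate of spread and cre driver, the control difference passed (adjusted p = 0.0473). The test of the difference between these effects, 0.77 ± 0.34 (SE), gave an unadjusted p of 0.0376 by limma and an adjusted p of 0.998, with 0 of 9 cycle genes and 0% of all genes called and 4.22% of all genes under an unadjusted 0.05. The same term was 1.28 in the Rip-cre set and 0.01 in the Pdx-cre set. Each set held 1 control ALDH+ library, and the Pdx-cre set 1 control ALDH- library, so these values cannot show a difference between drivers. The control comparison rests on 2 ALDH+ libraries, and these shared control libraries enter both it and the comparisons of genotype.

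Ratios of subunits do not depend on the scaling between libraries. The ratio of *Idh3a* to *Idh3b* was between 0.240 and 0.468, with a median of 0.385, in 8 ALDH- libraries, and between 0.114 and 0.408, with a median of 0.236, in 7 ALDH+ libraries. The lowest, 0.114, belonged to control ALDH+ replicate 1 and the highest ALDH+ value to knockout ALDH+ replicate 4, so the sorts overlapped. The ratio of *Suclg1* to *Sucla2* had a median of 2.11 (0.800 to 3.41) in ALDH- and 1.35 (0.733 to 1.83) in ALDH+ libraries. The ratio of *Sucla2* to *Suclg2*, the ATP-forming against the GTP-forming subunit, had a median of 1.09 (0.515 to 1.37) in ALDH- and 1.51 (1.10 to 1.88) in ALDH+ libraries. These ratios are descriptions, and no test was made of them.

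**Figure D4:**
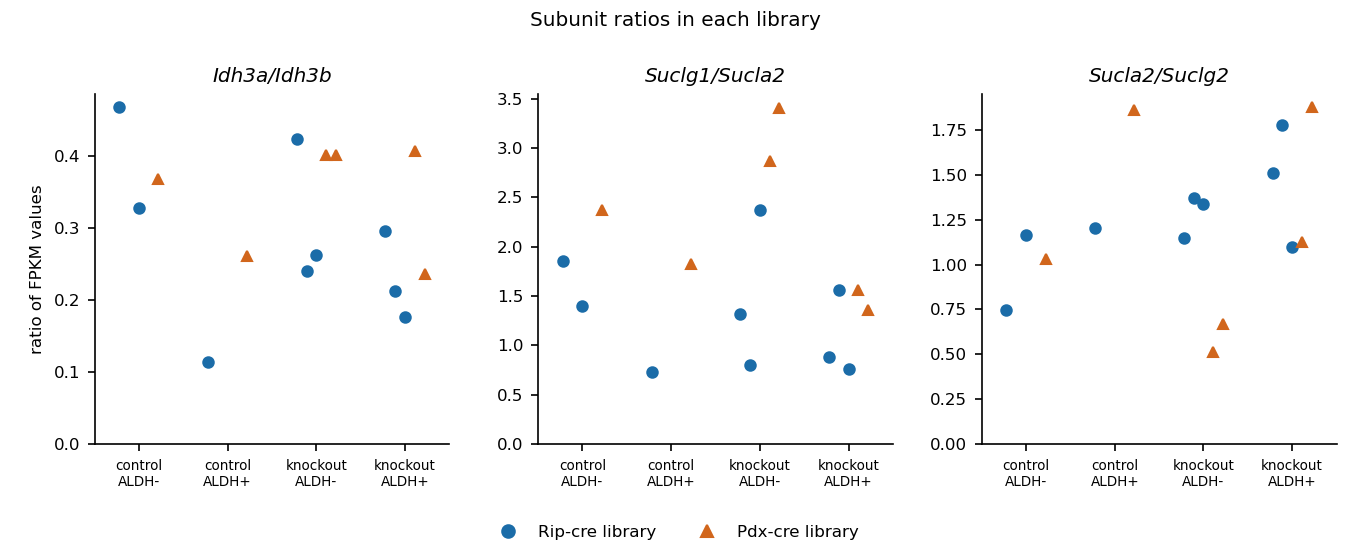
Ratio of the FPKM of 2 subunits in each library, by group, with axes from 0; circles are Rip-cre and triangles Pdx-cre libraries. *Idh3a* to *Idh3b* falls to 0.114 in control ALDH+ replicate 1, and *Suclg1* to *Sucla2* reaches 3.41 in knockout ALDH- replicate 5.

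Loss of the Foxo genes was compared with control cells within each sort. In ALDH- cells 0 of 9 cycle genes were called by limma, where 0.0177% of all genes were, and 0 of 9 passed an unadjusted p of 0.05, where 5.8% of all genes did. The log2 differences ran from -0.26 ± 0.30 (SE, adjusted p = 0.977) for *Suclg1* to 0.27 ± 0.29 (SE, adjusted p = 0.977) for *Fh1*, and *Idh3b* was at -0.03 ± 0.22 (SE). The 95% confidence intervals of these reached from -0.90 to 0.37 for *Suclg1* and from -0.35 to 0.89 for *Fh1*, and differences within these bounds were not excluded. In ALDH+ cells 0 of 9 were called, as were 0% of all genes, and 0 of 9 passed an unadjusted 0.05 against 6.59% of all genes. *Idh3a* had the largest difference, 0.53 ± 0.25 (SE; 95% confidence interval -0.01 to 1.07; adjusted p = 0.764), *Cs* one of -0.16 ± 0.16 (SE) and *Suclg1* one of -0.04 ± 0.34 (SE). The genotypes overlapped for every cycle gene in both sorts, where they did not for 3.09% of all genes in ALDH- and 8.25% in ALDH+ cells.

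Between the cre drivers, 1 cycle gene was called. *Idh2*, the NADP-dependent isocitrate dehydrogenase, fell in Pdx-cre against Rip-cre libraries by 0.64 ± 0.15 on the log2 scale (SE, limma, adjusted p = 0.0123), 1 of 9 cycle genes called where 9.71% of all genes were, 4.09% as lower. Its 9 Rip-cre libraries ranged from 23.1 to 44.5 FPKM with a median of 31.4, and its 6 Pdx-cre libraries from 12.7 to 23.6 FPKM with a median of 20.9. In ALDH- cells the Rip-cre libraries were at 30.1 to 44.5 FPKM and the Pdx-cre libraries at 19.2 to 23.6 FPKM. How often other genes part the drivers within ALDH- cells was not counted. In ALDH+ cells the drivers met at 23.1 FPKM. Taking all libraries together, 0 of 9 cycle genes separated the drivers without overlap after rescaling, against 1.96% of all genes. The call was kept under all 9 other settings tried and without each of the 15 libraries, with a log2 difference between -0.73 and -0.55. A further 5 genes passed only an unadjusted 0.05, as did 25.7% of all genes. Of these, *Suclg1* (0.51 ± 0.22, SE), *Idh3a* (0.41 ± 0.16), *Mdh2* (0.30 ± 0.13) and *Cs* (0.26 ± 0.10) were higher and *Ogdh* (-0.27 ± 0.12) lower in Pdx-cre libraries, with adjusted p values by limma from 0.122 to 0.161. *Fh1* (0.42 ± 0.21), *Sucla2* (-0.32 ± 0.17) and *Idh3b* (-0.02 ± 0.16) did not pass.

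**Figure D5:**
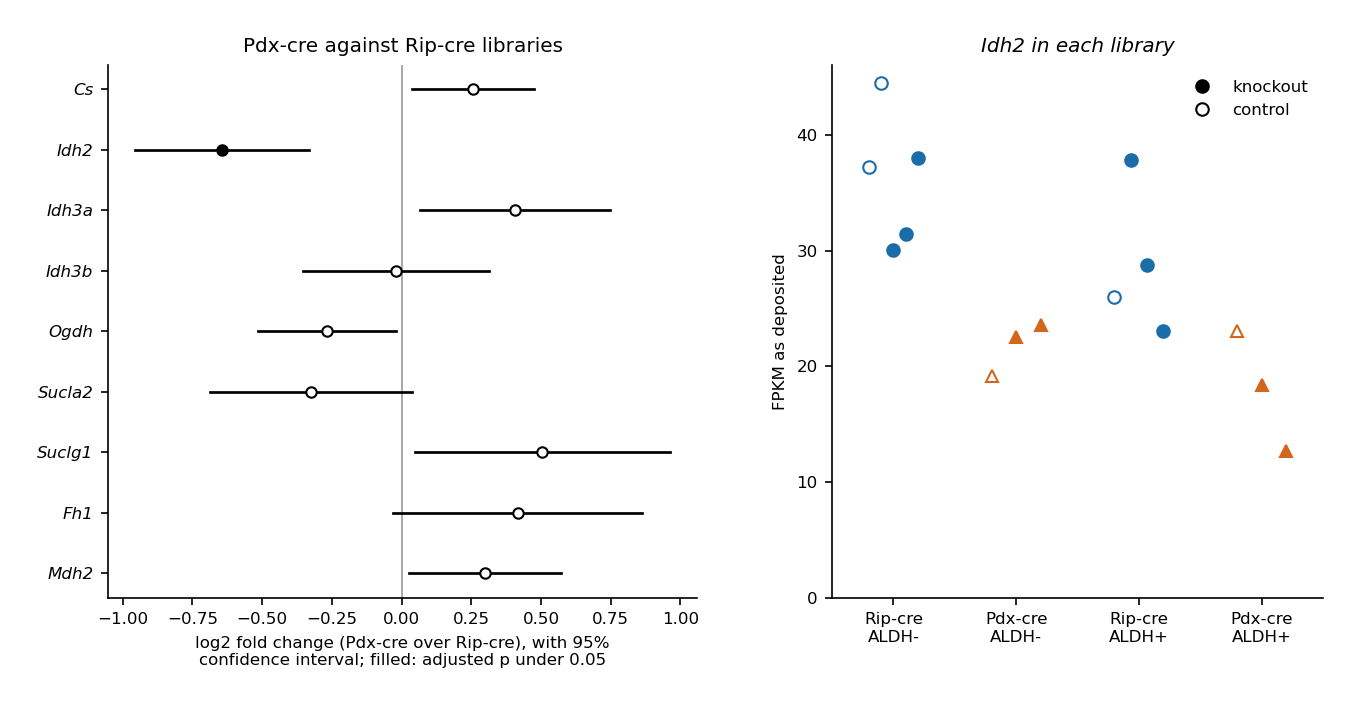
Left, log2 difference of each cycle gene between Pdx-cre and Rip-cre libraries with its 95% confidence interval, filled where the adjusted p is under 0.05. Right, FPKM of *Idh2* in each library by cre driver and sort (axis from 0; filled symbols knockout, open symbols control), with Pdx-cre values from 12.7 to 23.6 and Rip-cre values from 23.1 to 44.5.

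Cell-type markers moved with the cre driver as well. Of all genes 9.71% were called between the drivers, 4.09% as lower. Of 8 β-cell markers 6 were lower in Pdx-cre libraries (median log2 difference of the list -1.13), *Ins2* again being absent. The summed level, 71555 to 115113 FPKM and 35641 to 128161 FPKM under Rip-cre, was mostly that of *Iapp* (33196 to 125094 FPKM), which was not called (0.21), and does not describe the 6. Of 3 α-cell markers tested 3 were higher, with a summed level of 277 to 35849 FPKM against 157 to 1019 FPKM. Of the δ-cell markers 1 of 2 was higher (summed 752 to 13646 FPKM against 414 to 1298 FPKM), as was 1 of 2 pancreatic polypeptide cell markers (318 to 18184 FPKM against 371 to 2175 FPKM). Acinar markers were higher in 1 of 6 (summed 0.140 to 1376 FPKM against 0 to 1.72 FPKM), duct markers in 1 of 2 (139.7 to 715 FPKM against 104 to 339 FPKM) and the 1 macrophage marker tested in 1 of 1 (list sum 34.8 to 148 FPKM against 19.9 to 37.7 FPKM). *Gcg* and *Sst* were above 0 in every library, and the acinar genes *Pnlip* and *Amy2b* were at 0 in 11. Endothelial markers summed to at most 1.48 FPKM and stromal markers to at most 0.736 FPKM. The part of these cell types in the *Idh2* difference was not tested. The test of whether the difference between sorts itself differed between cre drivers called no cycle gene by limma (0 of 9, 0% of all genes; 0 of 9 at an unadjusted 0.05, 4.58% of all genes), the largest being *Sucla2* at 0.61 ± 0.32 (SE, adjusted p = 0.995) and *Idh3b* at -0.46 ± 0.30 (SE).

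The remaining enzymes of the cycle, its supply of pyruvate and its side branches were counted from lists. Of 6 other cycle enzymes and subunits, 1 fell in ALDH+ cells on average, where 3.64% of all genes did, and 6 had a negative difference (median -0.33), as had 51.8% of all genes. The gene called was *Dlst*, the second component of the 2-oxoglutarate dehydrogenase complex and so the partner of *Ogdh*, at -0.52 ± 0.15 (SE, limma, adjusted p = 0.0452). *Dlst* was at 28.9 to 34.9 FPKM in control ALDH-, 20.1 and 27.4 FPKM in control ALDH+, 29.6 to 66.0 FPKM in knockout ALDH- and 20.3 to 31.7 FPKM in knockout ALDH+ libraries. The call held only without knockout ALDH- replicate 1, 4 or 5 or knockout ALDH+ replicate 2, was lost without any one of the other 11 libraries and under 8 of 12 other settings, while the log2 difference stayed between -0.59 and -0.45. Of 12 genes for pyruvate entry 0 were called and 3 passed an unadjusted 0.05 (10 negative, median -0.10), a share close to the 20.8% of all genes. Those with the smallest p were the pyruvate carrier subunit *Brp44*, now *Mpc2* (-0.51 ± 0.18, SE), and the pyruvate dehydrogenase subunits *Pdhx* (-0.52 ± 0.21) and *Pdhb* (-0.27 ± 0.12), with adjusted p values by limma from 0.104 to 0.197. Of 10 genes for anaplerosis and export 0 were called and 2 passed an unadjusted 0.05 (10 negative, median -0.21), again close to the 20.8% of all genes. These were the cytosolic malate dehydrogenase *Mdh1* (-0.41 ± 0.13, SE, adjusted p = 0.0791) and the aspartate aminotransferase *Got1* (-0.35 ± 0.14), followed by its mitochondrial counterpart *Got2* (-0.26 ± 0.14). The *Mdh1* difference depended on which control ALDH+ library was kept. It shrank to -0.21 without replicate 1 of that group and grew to -0.60 without replicate 2. In control cells alone *Mdh1* was at -0.64 ± 0.22 (SE, limma, adjusted p = 0.178). The study's own test on counts lists *Mdh1* as lower in wild-type ALDH+ cells. In knockout against control cells 0 genes of these 3 lists were called in either sort by limma, and 0 or 1 gene a list passed an unadjusted 0.05, where 5.8% of all genes did in ALDH- and 6.59% in ALDH+ cells.

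Levels of the 9 cycle genes across libraries were related with both signs. Of 36 pairs, 18 had a positive and 18 a negative Pearson correlation of log2 levels (median -0.01). The closest pairs were *Idh3a* with *Mdh2* (0.75) and *Suclg1* with *Mdh2* (0.75) over 15 libraries, and these were 0.52 and 0.51 after the group and cre driver were removed. After that removal other pairs stood further from 0, *Idh3a* with *Ogdh* at -0.70 (14 libraries), *Cs* with *Idh3b* at 0.65 and *Idh2* with *Idh3a* at 0.64. *Sucla2* ran against the mean of the other members (-0.35), while *Mdh2* (0.57), *Cs* (0.50), *Suclg1* (0.49) and *Idh3a* (0.47) went with it. The genes whose levels over the 15 libraries were most like the mean of the 9 were *Rpl17* (0.92), *Pebp1* (0.91), *G3bp1* (0.91), *Rpsa* (0.90) and *Npc2* (0.90). Such correlations are descriptions, since the libraries share groups, cre drivers and scaling and the best of many genes were picked.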

How the data were processed

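The 15 libraries were made by poly-A selection with a TruSeq kit. Per the labels, reads were handled with bcl2fastq 1.8.4 and TopHat2 2.0.4 on mm9. The authors deposited 1 table a library with FPKM values and their confidence bounds in Cufflinks layout, and the quantifier version and annotation are not given in the sources used here. Starts in the tables were taken to count from 0, as is usual in that layout though not stated, and were raised by 1. Each table held 23699 entries. Left out were 248 symbols that occupied 712 lines, and 30 genes whose estimate was marked as failed or as too deep in at least 2 libraries. A further 33 genes kept 1 missing value. The study tested counts, which the files do not hold. Of values under 500 fragments, 66.2% gave whole fragments within 0.02, so counts were not recovered. FPKM were rescaled by trimmed means of M-values (30% and 5% trimmed), 1 was added, and log2 values were fitted with limma 3.58.1 (R 4.3.3), its prior variance following a trend in mean level, over all 15 libraries with 4 groups and the cre driver. Genes with a mean of at least 1 FPKM were tested, with an adjusted threshold of 0.05, 2-sided. The genes named are the 9 members, every listed gene past the threshold or otherwise up to 3 a list with the smallest p, and the 5 most like the members' mean. The members were set by name and not by their levels, but they and the lists were chosen with earlier results of these data known. FPKM depth per value limits precision through fragment number, and the closing section gives the alternatives.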

Additional observations from a re-analysis of the deposited data

Results flagged for a closer look

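No level of a cycle gene stood apart from the others of its group. The highest and lowest library were tested by Dixon's criterion in the 18 sets of 4 or 5 knockout libraries, with 0 past the critical value, where chance gives about 1 in 20. The control groups of 2 and 3 libraries were too small for it. No difference between genotypes or cre drivers in the effect of the sort passed the adjusted threshold for a cycle gene.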

How the results depend on the processing

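The count of cycle genes called between the sorts, averaged over genotypes, was 1 (*Idh3a*) and became 0 under 5 of 12 other settings. These were no cre driver in the model (*Idh3a* -0.61, adjusted p by limma = 0.126), Rip-cre libraries alone (-0.72), Pdx-cre libraries alone (-0.54), removal of the length trend (-0.64) and no trend in the prior variance (-0.64, adjusted p = 0.0559). Over the 12 settings the adjusted p ran from 0.0298 to 0.86. Fewer libraries were fitted in the Rip-cre and Pdx-cre sets, and for the others the cause was not tested. With 1 library left out, the count ranged from 0 to 1 there and from 0 to 1 in control cells. Over all genes, calls between the sorts numbered 662, but 3 without control ALDH+ replicate 1, 179 without the cre driver in the model, 223 with the length trend removed, 408 with no prior trend, 153 in Rip-cre and 4 in Pdx-cre libraries.

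None of the differences that changed sign had been called, and each cre set held 1 control ALDH+ library. Within Pdx-cre libraries *Idh3b* was at -0.13 on average, -0.076 in control and -0.18 in knockout cells, *Idh2* at 0.14 in control and *Fh1* at 0.045 in knockout cells. Between genotypes in ALDH- cells, *Idh3b* was at 0.16 and *Fh1* at -0.54 within Pdx-cre libraries, and *Idh3b* at 0.031 with the length trend removed. Within Rip-cre libraries *Sucla2* was at -0.081 in knockout cells and *Suclg1* at 0.29 between genotypes in ALDH+ cells. With 1 library left out, *Fh1* ranged from -0.46 to 0.051 on average and from -0.71 to 0.30 in control cells, *Idh2* from -0.57 to 0.052 and *Idh3b* from -0.10 to 0.33 in control cells, and *Idh3b* from -0.0096 to 0.30 in knockout cells. On average *Idh3b* ranged from 0.012 to 0.23 and *Sucla2* from 0.14 to 0.30. *Idh3b* also ranged from -0.16 to 0.070 between cre drivers and from -0.20 to 0.11 between genotypes in ALDH- cells, and *Suclg1* from -0.43 to 0.34 between genotypes in ALDH+ cells.

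Replicate numbers are shared between groups, but nothing in the labels ties same-numbered libraries to 1 animal or day. Same-numbered knockout libraries correlated by 0.0917 to 0.406 after group means were removed, and each of the 5 was most like its own number, while the control pairs were at 0.236 and -0.244. All 5 knockout pairs share a cre driver, and with the cre driver also removed they were at -0.0436 to 0.0698. Each own number was, however, also ahead of the other libraries of the same driver. With so few libraries for each driver, these values cannot decide whether the numbers mark pairs. With the replicate number as a block, 1 cycle gene was called between the sorts (*Idh3a* -0.65, adjusted p = 0.0304), *Idh2* kept its call between cre drivers (-0.64), and calls over all genes went from 662 to 717.

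Levels of *Suclg1* and *Idh3a* rest on as few as 132 and 168 fragments in a library, as worked out from the confidence intervals. The control ALDH+ group rests on 2 libraries.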
